A study of Mus musculus with 2 samples.

Results

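The genes described here are the EGF-type growth factor ligands and the ErbB receptors of the small intestine. The 10 members were taken by name: the receptors Egfr, Erbb2 and Erbb3 and the ligands Egf, Tgfa, Areg, Ereg, Btc, Hbegf and Nrg1. All 10 were found among the 43346 genes of the deposited tables, matched by Ensembl identifier to GENCODE symbols. Poly(A) RNA was sequenced from the small intestine of 1 female C57BL/6J mouse, an adult aged 10 weeks with no treatment, knockout or transgene in its labels. The labels give 2 technical libraries of that 1 biological replicate, called the first and the second library here. Both are of 1 group, so no condition was compared and nothing here measures variation between mice. The segment of small intestine and the cell composition were not given in the labels, and in whole tissue fewer cells of a type and less RNA per cell cannot be told apart.

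ErbB receptors are tyrosine kinases of the cell surface that signal as pairs. Most of the ligands are made as membrane-bound precursors, cut loose by metalloproteases such as the one encoded by Adam17, and bind Egfr, while Nrg1 binds Erbb3. Erbb2 has no known ligand of its own and acts as the partner of the others, and Erbb3 has little kinase activity and recruits PI3K once paired. In the intestine the family is known for supporting growth of the crypt epithelium and repair after injury.

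The feature that the ligands share is a short module with 6 cysteine codons, whose products form the disulfide bonds of the receptor-binding fold. All 7 ligands held it in the coding sequence of their main transcript, across exon joins, with gaps between successive cysteines of 7 codons, 4 or 5 codons, 10 or 13 codons, 1 codon and 8 codons. The search allowed 2 to 5 codons in the gap after the second cysteine and 10 to 14 in the gap that follows it, with the other gaps fixed, and 72 of 21901 coding genes (0.329%) held a match. The module is printed for 6 of the ligands, 5′ to 3′ on the coding strand from GENCODE M21, with the cysteine codons in capitals, because it is the region through which each of them meets its receptor.
Tgfa: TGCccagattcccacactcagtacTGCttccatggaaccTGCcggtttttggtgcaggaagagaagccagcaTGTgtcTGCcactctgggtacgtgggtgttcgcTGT
Areg: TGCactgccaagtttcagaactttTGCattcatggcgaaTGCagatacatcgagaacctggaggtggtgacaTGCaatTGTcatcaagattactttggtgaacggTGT
Ereg: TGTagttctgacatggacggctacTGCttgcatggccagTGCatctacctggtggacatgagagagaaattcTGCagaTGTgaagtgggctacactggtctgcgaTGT
Btc: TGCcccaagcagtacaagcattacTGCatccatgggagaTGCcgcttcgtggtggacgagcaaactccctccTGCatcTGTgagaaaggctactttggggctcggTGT
Egf: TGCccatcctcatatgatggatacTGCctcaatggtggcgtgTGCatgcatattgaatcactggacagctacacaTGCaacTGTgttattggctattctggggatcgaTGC
Nrg1: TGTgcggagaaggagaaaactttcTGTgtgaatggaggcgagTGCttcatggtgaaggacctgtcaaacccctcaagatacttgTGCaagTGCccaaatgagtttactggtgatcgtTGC
Tgfa, Areg, Ereg and Btc had the same gaps throughout (7, 4, 10, 1 and 8 codons). Egf had 7, 5, 10, 1 and 8 codons and Nrg1 had 7, 5, 13, 1 and 8. On mm10 the modules lie at chr6:86263200-86269960 (Tgfa, plus strand), chr5:91143614-91144364 (Areg, plus), chr5:91088496-91089111 (Ereg, plus), chr5:91362421-91366197 (Btc, minus), chr3:129686322-129690850 (Egf, minus) and chr8:31837698-31849398 (Nrg1, minus), each range including the intron within it. In Tgfa, Areg, Ereg and Btc it spans exons 3 and 4, in Egf exons 20 and 21 and in Nrg1 exons 2 and 3 of the transcript quantified.

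The libraries held 28277875 and 24509862 expected counts (RSEM's estimated reads per gene), and 0 counts allow up to 0.106 and 0.122 CPM (counts scaled to the library's size). Epithelial markers were abundant: Krt8, Vil1, Krt20, Epcam and Cdh1 ranged from 15.5 to 265.2 TPM (abundance per transcript length, on a scale with a fixed total) in the first library and from 161.3 to 1307 in the second. Mitochondrial genes and their nuclear copies took 72.3% of TPM in the first library and 21.6% in the second, which lowers the TPM of every other gene in the first. Levels of different genes are therefore compared per length, in TPM, within a library. A difference between libraries is given as a log2 ratio, second over first, of counts scaled by TMM, a method that sets the bulk of genes level. A gene can thus be higher in the second library in TPM and lower in TMM-scaled counts. The 95% intervals given cover counting error alone and take reads as independent. Reads lacking molecular identifiers can be copies of 1 molecule, so the intervals can be too narrow and the p-values too small.

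Erbb3 was the member of highest level in both libraries. It stood at 42.97 TPM in the first library (95% exact Poisson interval 42.0 to 44.0, from 7409 counts) and at 112.78 TPM in the second (110.8 to 114.8, from 12399 counts). These levels lay above those of 92.3% and 92.9% of the genes tested. Scaled by TMM, Erbb3 was close to equal in the libraries, at 350.4 and 378.2 CPM and a log2 ratio of 0.11 (95% exact binomial interval 0.07 to 0.15). Erbb3 lies on chromosome 10 at 128567523 to 128589652 on the minus strand, and the deposited tables quantified 1 transcript of it.

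Erbb2, the ligandless partner, had the largest fold difference of the members in TPM and in TMM-scaled counts. It had 83 counts and 0.58 TPM (0.462 to 0.719) in the first library, and 3785 counts and 42.77 TPM (41.4 to 44.2) in the second. The TMM-scaled level was 29.2-fold higher in the second library, a log2 ratio of 4.87 (4.56 to 5.21). Less the trend of all genes with GC content, the ratio was 0.63, under 2-fold, and Erbb3 then differed most (-0.82). It exceeded 30.8% of tested genes in the first library and 82.3% in the second. Erbb2 therefore ranked eighth of the 10 members in the first library and next to Erbb3 in the second. It lies on chromosome 11 at 98412470 to 98437716 and its end overlaps that of Mien1 on the other strand.

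Egfr is the receptor of most of the ligands measured here. It stood at 2.65 TPM (2.46 to 2.85, 759 counts) in the first library and 3.92 TPM (3.61 to 4.25, 585 counts) in the second. In TMM-scaled counts it was higher in the first library, at 35.9 against 17.8 CPM, a log2 ratio of -1.01 (-1.17 to -0.85) and an adjusted p of 6.19e-37 by the exact binomial test with Benjamini-Hochberg adjustment over all tested genes. Of the receptors, Erbb3 differed least on that scale, with a log2 ratio of 0.11. With mitochondrial genes left out, the TPM of Egfr was also higher in the first library, and that of Erbb3 differed less. Erbb3 exceeded Egfr per length by 16.2-fold in the first library and by 28.8-fold in the second. Egfr lies on chromosome 11 at 16752203 to 16918158 on the plus strand.

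Of the summed receptor TPM, Erbb3 held 93.0% in the first library and 70.7% in the second. Erbb2 held 1.26% and 26.8%, and Egfr 5.74% and 2.46%. The second library thus carried a sizeable Erbb2 share beside Erbb3, and in the first Erbb2 was the smallest of the receptors. Neither these shares nor those of the ligands below were corrected for GC content, along which the libraries differed. The receptors summed to 46.2 and 159.5 TPM (102.8 ± 80.1, SD over n = 2 technical libraries) and the ligands to 16.15 and 29.32 TPM (22.7 ± 9.31, SD, n = 2). Receptor TPM exceeded ligand TPM in both libraries, by 2.86-fold and 5.44-fold. In TMM-scaled counts the receptor sum was higher in the second library (390.3 and 511.5 CPM) and the ligand sum was higher in the first (57.1 and 42.6 CPM).

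**Figure D1:**
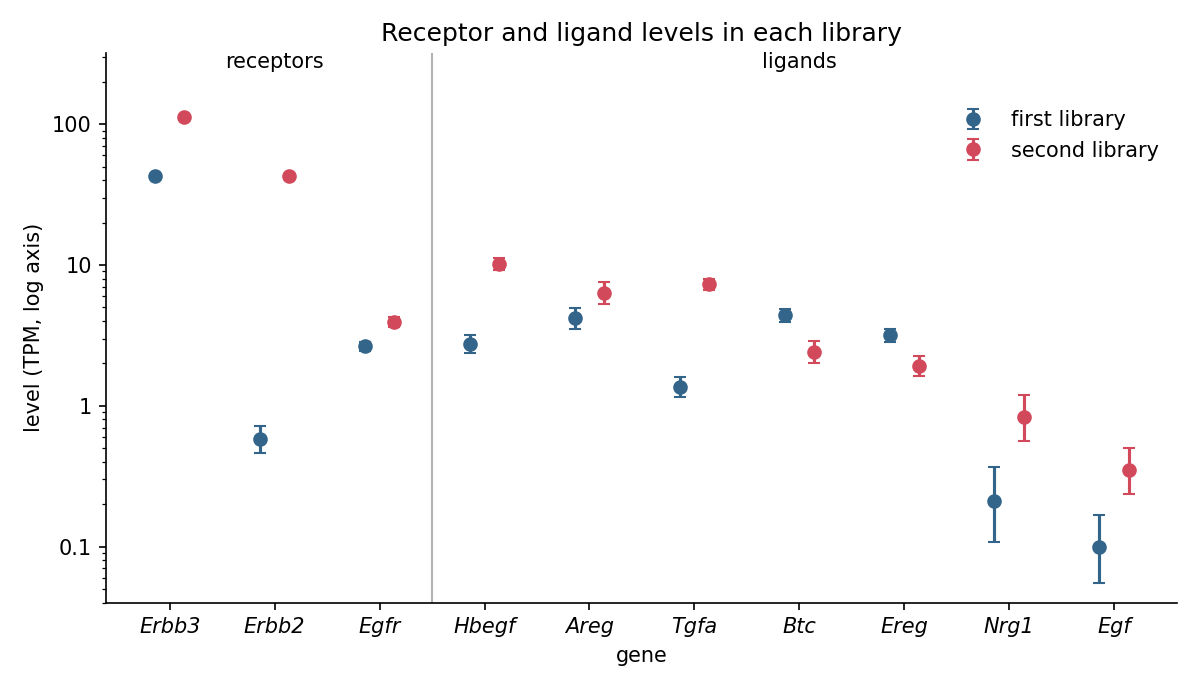
Level of each receptor and ligand gene in TPM on a log axis, in the first and second library, with bars for the 95% exact Poisson interval of the counts. Erbb3 is the highest and Nrg1 and Egf are the lowest in both libraries, and Erbb2 moves from 0.58 to 42.77 TPM.

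Among the ligands, those that lead differed between libraries. Btc (betacellulin) and Areg (amphiregulin) were highest in the first library and Hbegf (heparin-binding EGF) and Tgfa (transforming growth factor alpha) in the second. Btc stood at 4.38 TPM (3.93 to 4.87, 348 counts) and 2.42 TPM (2.01 to 2.89, 123 counts). Ereg (epiregulin) stood at 3.17 TPM (2.86 to 3.51, 370 counts) and 1.92 TPM (1.62 to 2.26, 143 counts). Both were lower in the second library on either scale, with log2 ratios of -2.13 for Btc (-2.44 to -1.83, adjusted p = 3.72e-52, exact binomial test) and -2.00 for Ereg (-2.29 to -1.72, adjusted p = 5.86e-51, exact binomial test). These are 4.38-fold and 4.004-fold differences in favour of the first library.

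Areg had nearly equal counts, 125 and 122, which gave 4.18 TPM (3.48 to 4.98) and 6.34 TPM (5.26 to 7.57). Its log2 ratio was -0.67 (-1.04 to -0.30, adjusted p = 0.000402, exact binomial test), under the 2-fold difference required for a call. Areg, Ereg and Btc are neighbours on chromosome 5, and Epgn, a further ligand gene, lies beside them. Ereg (91074622 to 91093646) and Areg (91139599 to 91148432) are on the plus strand, 45952 bases apart, and Btc (91357261 to 91402994) is on the minus strand 208828 bases beyond Areg. The 5′ end of Ereg overlaps the antisense gene Gm19610.

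Tgfa had 161 counts and 1.36 TPM (1.16 to 1.59) in the first library and 526 counts and 7.28 TPM (6.67 to 7.93) in the second. It was 2.10-fold higher in the second library in TMM-scaled counts, with a log2 ratio of 1.07 (0.82 to 1.34) and an adjusted p of 3.73e-18 by the exact binomial test. Hbegf, which is also the cell surface receptor for diphtheria toxin, had 178 counts and 2.75 TPM (2.36 to 3.19), and 421 counts and 10.18 TPM (9.23 to 11.2). Its log2 ratio of 0.61 (0.35 to 0.87, adjusted p = 1.93e-06, exact binomial test) was under 2-fold. Tgfa lies on chromosome 6 at 86195223 to 86275719 and Hbegf on chromosome 18 at 36504927 to 36515805.

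Egf itself, the ligand that names the family and is abundant in salivary gland and kidney, was the lowest member in both libraries. It had 14 counts (0.10 TPM, 0.055 to 0.168) and 30 counts (0.35 TPM, 0.236 to 0.4996). Nrg1 (neuregulin 1), a ligand of Erbb3, had 12 counts (0.21 TPM, 0.109 to 0.367) and 30 counts (0.83 TPM, 0.560 to 1.18). Neither passed the exact binomial test, with adjusted p of 0.377 for Egf and 0.222 for Nrg1, and their log2 ratios of 0.44 (-0.49 to 1.496) and 0.65 (-0.32 to 1.79) had intervals wide enough to hold a 2-fold difference. The deposited tables hold 1 transcript of Nrg1 and 1 of Egf, where GENCODE M21 lists 18 and 9, so reads of other isoforms may not have been counted. Egf lies on chromosome 3 at 129677565 to 129755316 and Nrg1 on chromosome 8 at 31814551 to 32884029.

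Per length, the order in the first library was Erbb3, Btc, Areg, Ereg, Hbegf, Egfr, Tgfa, Erbb2, Nrg1 and Egf. From Btc down to Egfr each neighbour's counting interval overlapped the next, as did those of Nrg1 and Egf. In the second library the order was Erbb3, Erbb2, Hbegf, Tgfa, Areg, Egfr, Btc, Ereg, Nrg1 and Egf, and the neighbours with overlapping intervals were Tgfa with Areg and Btc with Ereg. Of the 45 pairs of members, 29 kept their order and 16 did not. Of those 16, 9 involved Erbb2 or Egfr. At 1 TPM or more were 7 members in the first library and 8 in the second, the added gene being Erbb2. This depends on the mitochondrial share. With mitochondrial genes left out, Erbb2 had 2.10 TPM in the first library, and Nrg1 had 0.76 TPM there and 1.06 in the second.

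As shares of ligand TPM, Btc held 27.1% and 8.25%, Areg 25.9% and 21.6%, and Ereg 19.6% and 6.55%. Hbegf held 17.0% and 34.7% and Tgfa 8.42% and 24.8%. Nrg1 and Egf held 1.3% and 0.619% in the first library and 2.83% and 1.19% in the second. Areg was the ligand whose share moved least in proportion.

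**Figure D2:**
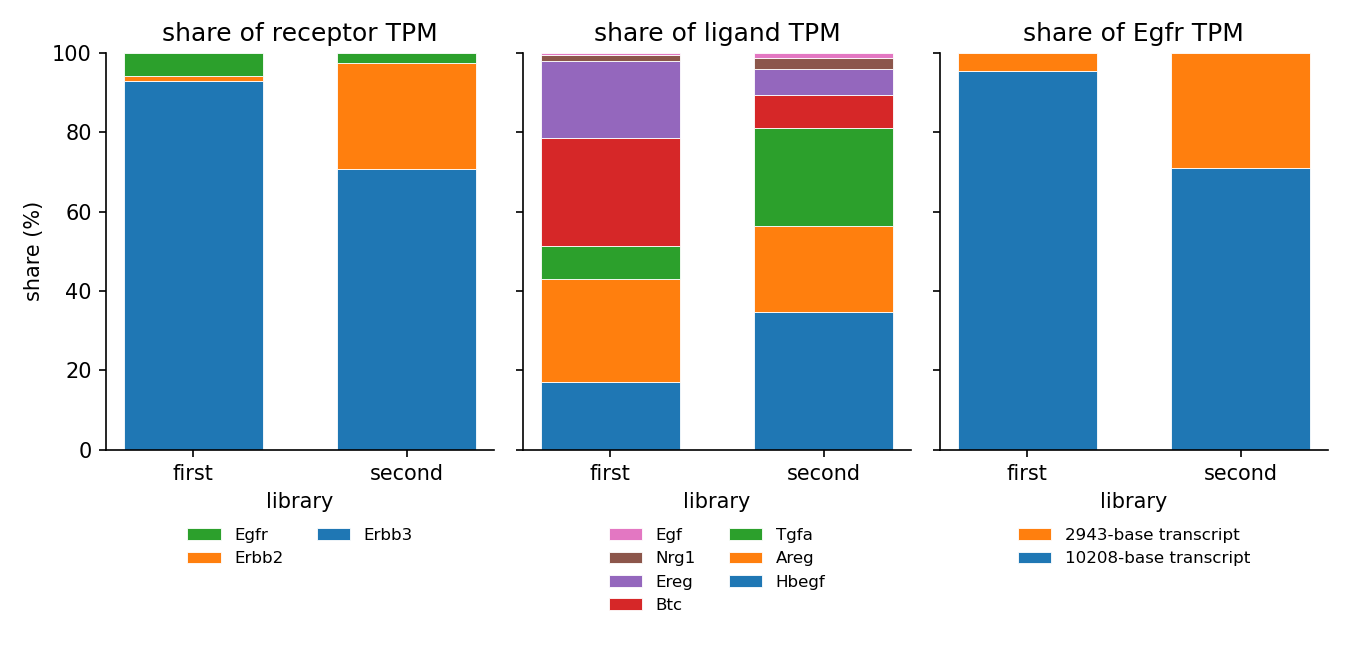
Share in percent of summed receptor TPM (left), of summed ligand TPM (middle) and of Egfr TPM by transcript (right), as stacked bars for the first and second library. Erbb2 grows from 1.26% to 26.8% of receptor TPM, Hbegf and Tgfa take more of the ligand TPM in the second library, and the 2943-base Egfr transcript grows from 4.65% to 29.03%.

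By the exact binomial test with Benjamini-Hochberg adjustment and a difference of 2-fold or more, 2 of the 10 members were higher in the second library (Erbb2 and Tgfa) against 3 in the first (Egfr, Ereg and Btc). Over all 15194 genes tested, 40.2% were called towards the second library and 27.5% towards the first. The members' 2 and 3 of 10 are below and near that background, so a call between these libraries was common and is not a result about the family. The test compares these libraries, not conditions. The median log2 ratio was 0.27 over the members and 0.26 over all genes tested. With the libraries scaled by total counts in place of TMM, which moved the median of all genes to 1.10, 5 members (Egf, Erbb2, Hbegf, Nrg1 and Tgfa) were higher in the second against 2 (Btc and Ereg) in the first. Scaled by totals without mitochondrial genes, Egfr was not called and the count was 2 (Erbb2 and Tgfa) against 2 (Btc and Ereg).

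The libraries differed along GC content, the share of G and C bases in a gene's transcripts. Among all tested nuclear genes the median log2 ratio was -2.23 in genes of 35 to 40% GC, -1.54 at 40 to 45%, -0.42 at 45 to 50%, 1.48 at 50 to 55% and 4.23 at 55 to 60%. The members lay along the same gradient. Ereg (39.2% GC) and Btc (40.6%) were at the low end, Egfr followed (44.7%), Areg, Egf, Hbegf, Nrg1, Tgfa and Erbb3 lay between 48.4% and 51.2%, and Erbb2 (57.4%) was at the high end.

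**Figure D3:**
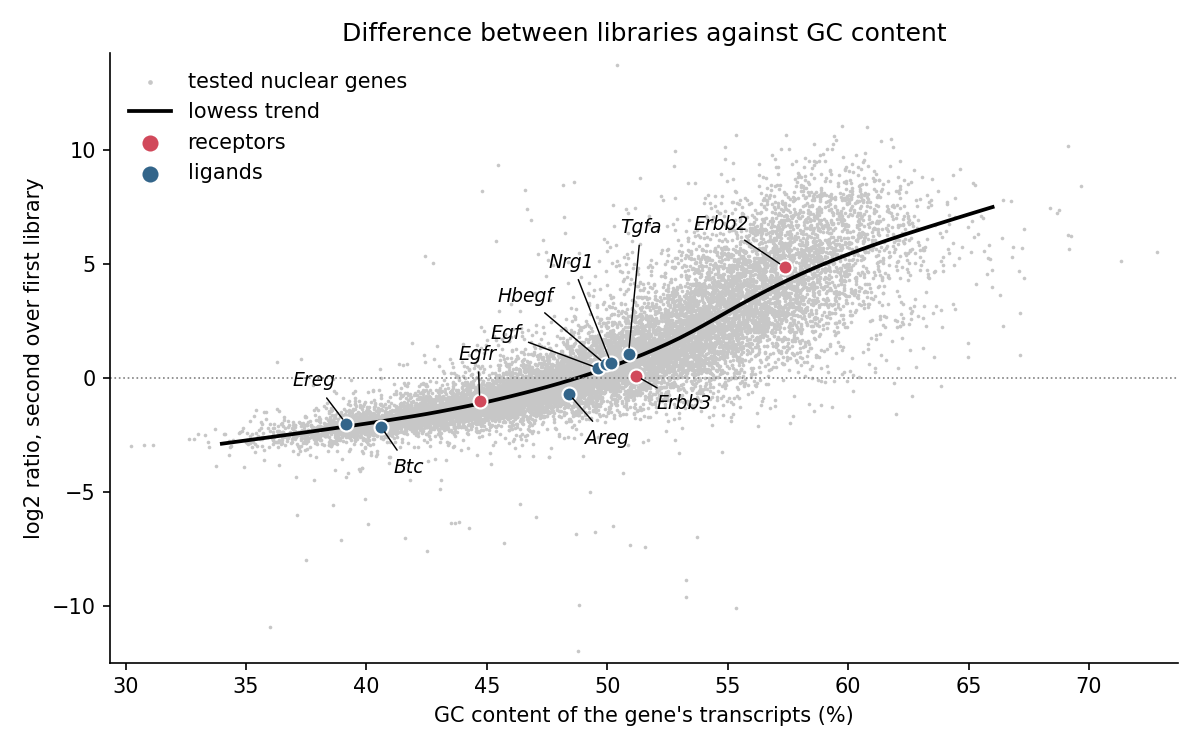
Log2 ratio of TMM-scaled counts, second over first library, against the GC content of each gene's transcripts in percent. Grey points are tested nuclear genes, the line is the lowess trend through them, and receptors and ligands are marked: Ereg and Btc sit at the lower left, Erbb2 at the upper right, and Areg and Erbb3 below the line.

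After subtraction of the GC trend over all tested nuclear genes, none of the 10 members differed by 2-fold or more in either direction. In the same calculation 14.1% of 15151 genes were called towards the second library and 13.1% towards the first. The Erbb2 log2 ratio went from 4.87 to 0.63 and still passed on p alone (adjusted p = 6.52e-05, exact binomial test). Ereg went from -2.00 to 0.11 (adjusted p = 0.541, exact binomial test) and Btc from -2.13 to -0.24 (adjusted p = 0.153, exact binomial test). Egfr went from -1.01 to 0.10 (adjusted p = 0.308, exact binomial test) and Tgfa from 1.07 to 0.28 (adjusted p = 0.0513, exact binomial test).

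Erbb3 and Areg were the members left furthest below the trend. Erbb3 went from 0.11 to -0.82 (adjusted p = 3.01e-304, exact binomial test), a 1.76-fold difference towards the first library, and Areg from -0.67 to -0.57 (adjusted p = 0.00445, exact binomial test). Hbegf, Nrg1 and Egf stood at 0.18, 0.14 and 0.12. The weighting of GC content by transcript counts was chosen after the plain mean was seen, and the Egfr value depends on that choice. Its count-weighted 44.7% follows its most abundant transcript, and with the plain mean over all 5 annotated transcripts (50.1%) its log2 ratio after subtraction was -1.32 and Egfr was called higher in the first library. What else differs between the libraries along GC content was not tested.

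**Figure D4:**
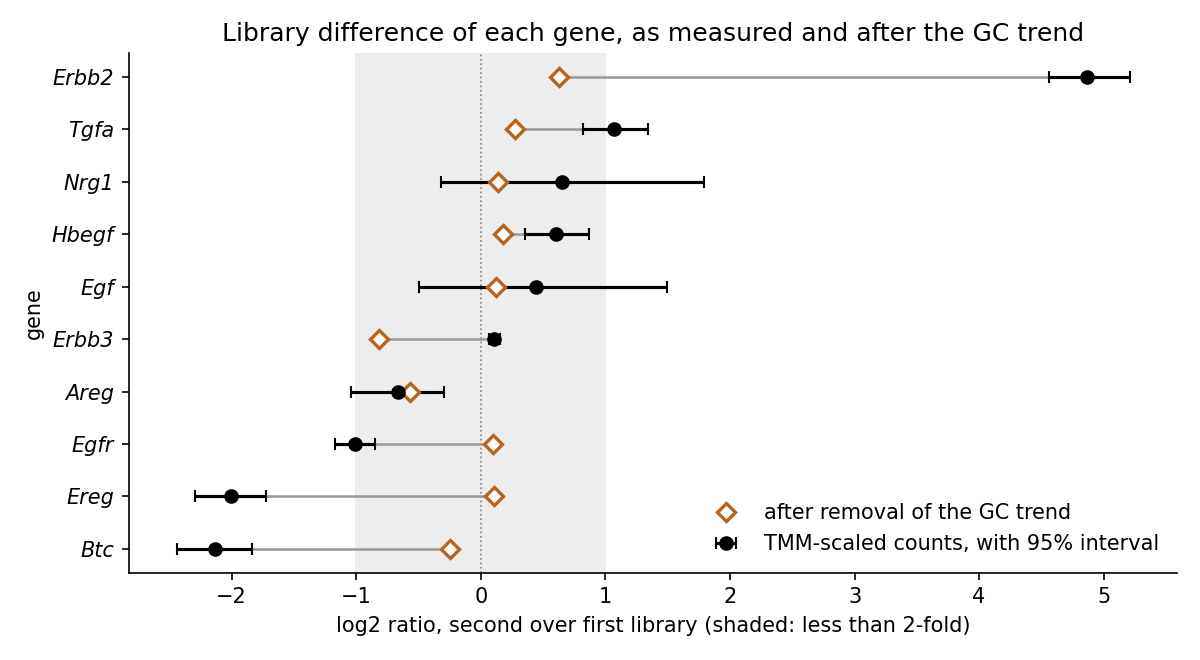
Log2 ratio of each member, second over first library, in TMM-scaled counts (black, with 95% exact binomial interval) and after subtraction of the GC trend (open diamonds). The shaded band marks differences under 2-fold: Erbb2, Tgfa, Egfr, Ereg and Btc lie outside it before subtraction and all 10 members lie inside it after.

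For Ereg, Btc and Egfr the low GC content came from outside the coding sequence. Coding sequence held 48.4% GC in Ereg, 51.4% in Btc and 50.8% in the long Egfr transcript, against 39.2%, 40.6% and 44.4% over the whole transcripts. Coding length was 486 of 4136 bases in Ereg, 531 of 2876 in Btc and 3630 of 10208 in that Egfr transcript. In Erbb2 coding sequence and transcript were alike, at 57.6% and 57.3%. The modules printed above are all coding, and those of Ereg (50.9% GC) and Btc (55.6%) are not GC-poor.

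Egfr was the member whose transcript makeup differed most. The deposited tables assigned counts to 2 of its 5 transcripts. A transcript of 10208 bases with 1210 codons encodes the full receptor. A transcript of 2943 bases has 655 codons, shares the first 641 with the long form and ends in 40 coding bases of its own, so that it lacks the part of the coding sequence that holds the kinase domain. The join is shown on the plus strand of chromosome 11 (mm10), since the forms part here. The 30 shared bases are in lower case and the bases that follow in each form are in capitals.
Egfr long form: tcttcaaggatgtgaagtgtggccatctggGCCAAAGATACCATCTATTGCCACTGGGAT
Egfr short form: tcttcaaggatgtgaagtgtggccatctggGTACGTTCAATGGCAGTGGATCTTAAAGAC
The shared bases are chr11:16887156-16887185. The short form reads on at chr11:16887186-16887215 in its last exon, 16 of 16, and the long form continues in exon 17 of 28 at chr11:16889913-16889942. The short form's own bases thus lie in the intron that the long form splices out. Reads of unspliced long-form RNA would match them too, and the counts do not tell these sources apart.

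The short form held 4.65% of Egfr TPM in the first library and 29.03% in the second. In expected counts it had 10.04 of 759 (1.32%, Clopper-Pearson 95% interval 0.634 to 2.41%) and 59.3 of 585 (10.1%, 7.77 to 12.8%). The intervals do not overlap, and they cover counting error of estimated counts alone. The long form had 748.96 and 525.7 counts. GC content was 44.4% in the long form and 50.6% in the short, and a higher share of the GC-richer form in the second library ran in the same direction as the trend over all genes. Its part in the isoform difference was not tested.

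In the other members 1 transcript held nearly all of the TPM. The 5012-base Erbb2 transcript held 100% and 91.54%, and a 4431-base noncoding transcript held 0% and 6.35%. The 4183-base Tgfa transcript held 100% and 95.03%. Erbb3, Egf, Areg, Ereg, Btc, Hbegf and Nrg1 had 1 transcript each in the deposited tables.

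The remaining genes of the family were low, apart from Nrg4. Nrg4 (neuregulin 4), a ligand of Erbb4, stood at 2.72 TPM (2.27 to 3.23, 129 counts) and 10.2 TPM (8.87 to 11.7, 211 counts), and its log2 ratio was 0.07 (-0.25 to 0.40, adjusted p = 0.678, exact binomial test). Its counts were spread over 7 transcripts, most of them annotated as noncoding or as targets of decay. Erbb4, its receptor, had 2 counts and 1 count, Epgn 1 and 2, and Nrg3 2 and 0. Nrg2 had 2 and 34 counts and was higher in the second library (log2 ratio 3.15, 1.49 to 6.56, adjusted p = 1.01e-05, exact binomial test). After subtraction of the GC trend at its 63.1% GC it was called higher in the first (-3.42, adjusted p = 0.0404, exact binomial test), a value that rests on 2 counts. Of the 5 genes, 2 had enough counts to be tested, with 1 called towards the second library and 0 towards the first.

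Over all genes tested, the shares called towards the second and first library were 40.2% and 27.5%, with a median log2 ratio of 0.26, and after subtraction of the GC trend 14.1% and 13.1%. These shares are the background for the counts in the pathway lists.

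Shedding genes set the release of the ligands. All 11 genes could be tested, with 3 called towards each library and a median log2 ratio of -0.08. Adam10, the protease known for releasing Egf and Btc, had the highest mean TPM of the list, from 42.7 and 30.1 TPM (log2 ratio -1.78). Frmd8, a binding partner of the iRhom proteins, stood at 1.74 and 34.9 TPM (2.89), and the metalloprotease inhibitor Timp3 at 12.8 and 12.5 TPM (-1.32). Rhbdf2, which encodes an iRhom needed for Adam17 to mature, had 2 and 662 counts and the highest ratio (7.42). It was still called after subtraction of the GC trend (2.46, adjusted p = 0.000593, exact binomial test). That value rests on 2 counts in the first library. After that subtraction 1 gene of the list was higher in each library.

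In the Ras and ERK route, which carries the signal from the receptors to the nucleus, 6 of 16 genes were higher in the second library against 5 in the first (median log2 ratio 0.17). Mapk3, encoding ERK1, stood at 3.27 and 235.2 TPM (log2 ratio 6.39). Map2k2, which encodes a kinase that activates ERK, stood at 1.17 and 157.8 TPM (6.88). After subtraction of the GC trend Mapk3 was the gene still higher in the second library (2.10), and Gab1, an adaptor outside the naming rule and named after its value was seen, the one higher in the first (-1.80).

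In the PI3K and Akt route, which Erbb3 feeds, 4 of 9 genes were higher in the second library against 4 in the first (median -0.72). Akt1 stood at 0.86 and 60.7 TPM (log2 ratio 4.75) and Pik3r1, a regulatory subunit of PI3K, at 29.3 and 19.8 TPM (-1.23). Pik3r2 had 3 and 1697 counts and the highest ratio (8.29). It was the gene called after subtraction of the GC trend (2.32), a value that rests on 3 counts in the first library.

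Genes that restrain the receptors or the ERK route numbered 17, of which 3 were higher in the second library against 4 in the first (median -0.38). Errfi1, a direct inhibitor of Egfr, stood at 19.98 and 34.2 TPM (log2 ratio -0.53), and the ERK phosphatase Dusp6 at 24.3 and 34.1 TPM (-0.79), both under 2-fold. Socs4 stood at 26.0 and 15.1 TPM (-2.06). Rnf41, whose ubiquitin ligase acts on Erbb3, had the highest ratio (2.08) and Spred1 the lowest (-2.10). After subtraction of the GC trend 0 were called towards the second library and 4 towards the first, and these were other genes: Lrig2, Cblb, Spred1 and Socs4 before, and Lrig3, Spry1, Spred2 and Ptpn1 after. Of those outside the naming rule, all were named after their values were seen, and Ptpn1 had been called towards the second library before (log2 ratio 1.44 and then -2.00).

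ERK target genes report recent signalling. Of 11 genes, 9 had enough counts to be tested, and 3 were higher in the second library against 0 in the first (median log2 ratio 0.80). Fos, an immediate early gene, was the most abundant at 29.6 and 75.4 TPM, and its log2 ratio was 0.01 (adjusted p = 0.83, exact binomial test). Dusp5 stood at 1.3 and 17.6 TPM (2.47) and Egr1 at 3.35 and 14.9 TPM (0.87). The 3 of 9 is below the share over all genes. With the GC trend subtracted, 0 of 9 were higher in the second library against 5 in the first (median -1.24). Over all genes these shares were 14.1% and 13.1%. Among the 5 were Fos (-1.24), Egr1 (-1.52), Dusp5 (-1.44) and Phlda1 (-5.05). None of them was called towards the first library before subtraction, and for Phlda1 the ratio was -0.10 and the trend subtracted 4.95. Whether ERK signalling differed between the libraries was not tested.

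**Figure D5:**
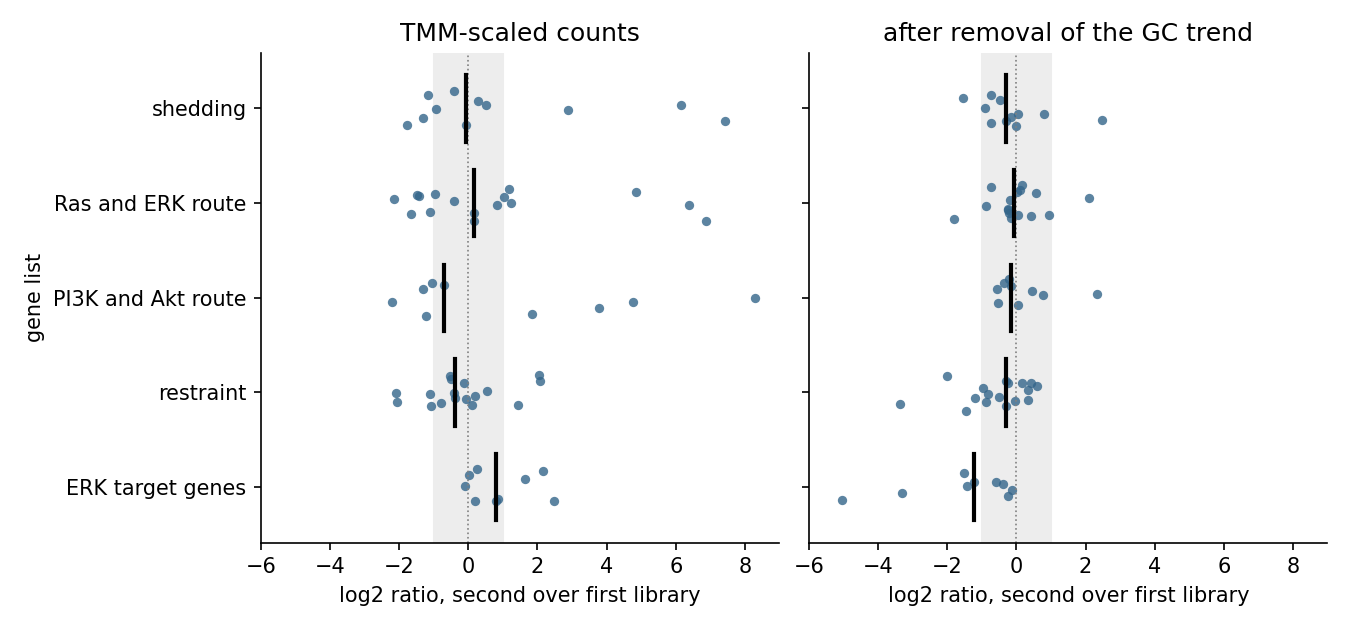
Log2 ratio, second over first library, of each tested gene in 5 lists of pathway genes, in TMM-scaled counts (left) and after subtraction of the GC trend (right). Points are genes, black bars are list medians and the shaded band marks less than 2-fold: the ERK target median moves from 0.80 to -1.24 and the other medians stay between -0.72 and 0.17.

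Markers of other cell types also moved between the libraries. Over all genes tested, 40.2% were called towards the second library and 27.5% towards the first. After subtraction of the GC trend these shares were 14.1% and 13.1%. In TMM-scaled counts the goblet cell list (Muc2, Tff3, Fcgbp and Agr2) summed to 154.8 and 3684 CPM, and all 4 were higher in the second library after subtraction of the GC trend (median 2.60). The smooth muscle list (Myh11, Acta2 and Des) summed to 76.0 and 620.8 CPM, with 3 of 3 called towards the second library and 2 of 3 after subtraction. Of the pancreatic acinar genes, Cela2a and Cpa1 were called towards the second library and Amy2a5 was not (median log2 ratio 4.17), and 3 of 3 were called that way after subtraction (median 1.28), while their sum was 2976 and 3389 CPM. Endothelial markers summed to 10.8 and 95.8 CPM, with 3 of 3 called towards the second library and 1 of 3 after subtraction. Macrophage markers summed to 16.0 and 103.3 CPM, with 2 of 3 called that way and 1 of 3 after subtraction. Endocrine markers summed to 58.9 and 168.2 CPM, with 2 of 3 called towards the second library and 1 towards the first, and 0 after subtraction in either direction. Plasma cell markers summed to 753.6 and 380.1 CPM, a sum led by Jchain, which was called towards the first library, while Mzb1 and Sdc1 were called towards the second. Mesenchymal markers summed to 286.0 and 175.8 CPM, led by Dcn, which was called towards the first library, while Col1a1 and Foxl1 were called towards the second and, after subtraction, towards the first. Neuron and glia markers summed to 7.10 and 3.51 CPM, with 2 of 3 called towards the second library and 1 towards the first. The Brunner's gland markers Muc6 and Bpifb1 were at 0 in both libraries and Tff2 was at 3.08 and 81.1 TPM. Stem cell markers summed to 360.8 and 226.8 CPM, with 2 of 4 called towards the second library and 1 towards the first. After subtraction 0 and 2 of them were called. Paneth cell markers summed to 1330 and 2065 CPM, with 2 of 4 called towards the second library before and after subtraction. Tuft cell markers summed to 33.7 and 33.4 CPM, with 2 of 3 called towards the second library and 1 towards the first. After subtraction 1 and 0 of them were called. Adipocyte markers summed to 51.1 and 65.5 CPM, with 1 of 3 called towards the second library before and after subtraction. The part of cell composition in the members' values was not tested.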

How the data were processed

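Poly(A) RNA-seq of 1 mouse small intestine was deposited as gene and transcript tables for 2 technical libraries. Per the file headers the tables are in RSEM format, and the deposited notes name assembly mm10 and GENCODE M4. Aligner and software versions: not given in the sources used here. The authors deposited expected counts (estimated reads per gene, rounded here for tests), TPM and FPKM values, percent of gene TPM per transcript, and lower and upper bounds of each TPM signal as a credibility interval. Those bounds missed the deposited TPM of 1 member in each library, so exact Poisson intervals on counts were used.

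Symbols, positions, sequences and GC content came from GENCODE M21, matched by identifier without version (42462 of 43346 genes). GC content was weighted by transcript counts, a choice made after the plain mean was seen to miss the main Egfr transcript. Genes with 20 or more counts over both libraries were tested by a two-sided exact binomial split with TMM sizes (edgeR 4.0.16), Benjamini-Hochberg adjusted, and called at 0.05 and 2-fold. No residual degrees of freedom were left for a quasi-likelihood fit. Log2 ratios used 0.5 prior counts. The GC trend was a lowess (span 0.3, statsmodels 0.14.6) without mitochondrial genes and copies, which were found by BLAST 2.17.0. The scripts were tested on simulated data. DESeq2 1.42.0 size factors were an alternative.

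Named genes were all members, the rest of the family, and from each pathway list the 3 of highest mean TPM and those of highest and lowest log2 ratio. Some genes chosen this way are not reported here. The members and the lists were chosen with earlier results of these data known.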

Additional observations from a re-analysis of the deposited data

How the results depend on the processing

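The count of members called was unchanged at 2 and 3 with DESeq2 size factors, with posterior counts, without a filter on low counts and with 100 or more counts (8 members tested). Members higher in the second library numbered 5 with total counts, 1 at 4-fold and 0 after subtraction of the GC trend with a span of 0.3 or 0.6 or with unweighted GC. With totals less mitochondrial genes the counts were 2 and 2, Egfr losing its call. At 1.5-fold they were 3 and 4, and at 4-fold 1 and 2. With total counts 2 were higher in the first. Members higher in the first library numbered 0 with either span and 1 with unweighted GC, an alternative added after seeing the data. Subtraction of the GC trend changed the sign of Egfr (0.10), Erbb3 (-0.82) and Ereg (0.11). Of these, Egfr and Ereg did not pass the exact binomial test (adjusted p = 0.308 and 0.541). With unweighted GC the sign changed for Erbb3 (-0.67), Tgfa (-0.61) and Ereg (0.15). Ereg again did not pass (adjusted p = 0.378, exact binomial test). The cause was not tested.

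Without mitochondrial genes the mean sums rose to 185.2 TPM for receptors and 47.9 TPM for ligands. Leaving out either library gave 46.2 to 159.5 TPM and 16.15 to 29.32 TPM. After subtraction of the GC trend, the genes higher in the second and first library were 0 and 1 of the other family genes, 1 and 1 of the shedding genes, 1 and 1 in the Ras and ERK route, 1 and 0 in the PI3K and Akt route, 0 and 4 of the restraint genes and 0 and 5 of the ERK targets. At 1.5-fold, 5 ERK targets were higher in the second. As shares of counts in place of TPM, the Egfr long form held 98.7% and 89.9% and the short form 1.32% and 10.1%, while the main Erbb2 transcript held 94.2% and the main Tgfa transcript 99.2% in the second library.

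No paired analysis was possible because the libraries are technical replicates of 1 animal in 1 group. Depth limits Egf and Nrg1, at 30 counts or fewer in each library.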
